A study of Macrobrachium rosenbergii with 9 samples.

Results

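A set of 31 transcripts, of 21071 in the deposited table, was present in testis, ovary and androgenic gland of adult Macrobrachium rosenbergii and stood higher in the gland than in either gonad. The members were chosen from the measured values themselves. Each estimated read count was divided by the size factor of its library, a number set so that the typical transcript has the same value in every library, and the quotient is called N here. A transcript was taken when its lowest N in the 3 gland libraries was at least 4 times its highest N in the 6 gonad libraries, when its lowest gonad N was at least 50, and when that lowest gonad N was above 1/16 of the lowest gland N. The first condition was met by 463 transcripts with a gland N above 0, the second by 6025, and both by 69, of which 31 stayed under the ceiling. The gap between gland and gonads is therefore what chose these transcripts and is described below without being read as a finding.

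The androgenic gland is the endocrine organ of male decapods and sits on the sperm duct. It secretes an insulin-like hormone that drives male differentiation, and in this prawn removal or transplantation of the gland can turn the sex of a young animal. Testis and ovary are the gonads of the male and the female. Transcripts present in all of these organs differ from such a gland product in that the organs vary in their level and not in their presence.

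RNA was sequenced from 9 libraries of strain CMr1, 3 each of testis and androgenic gland from adult males and of ovary from adult females, with no treatment named in the labels. Nothing in the labels ties the libraries of a tissue to different animals. The p-values below therefore reflect only how far these libraries differ, which may be technical. Totals lay between 7142794 and 11231573 counts. Size factors were 0.383 to 0.683 in the gland and 1.15 to 1.63 in the gonads. Within a tissue, log2 expression correlated at 0.901 to 0.935 across 17043 transcripts (transcripts are not independent replicates), while testis 2 stood apart at 0.824 and 0.854 with the other testes. The files pair no ID with a gene, and 0 IDs matched the 31758 genes of the reference table. No pathway, marker of a cell type or genome position can be given for a member, so the labelled tissues could not be checked against markers. Each member is called by its deposited length in bases and by the word Female or Male in its ID, the sex label, whose origin the labels do not state. These are whole tissues, in which fewer cells of a type and less RNA per cell cannot be told apart.

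The members spanned a wide range of abundance. Mean gland N ran from 591 to 22663 with a median of 2312, while the means ran from 85.9 to 2748 in testis and from 62.0 to 1618 in ovary. In the gland 7 members averaged 5000 or more and 5 averaged under 1000. The thinnest value of any member was 77 counts, of the 2854-base female transcript in testis 1, with an exact 95% Poisson interval of 60.8 to 96.2 counts. That interval covers counting error only.

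**Figure D1:**
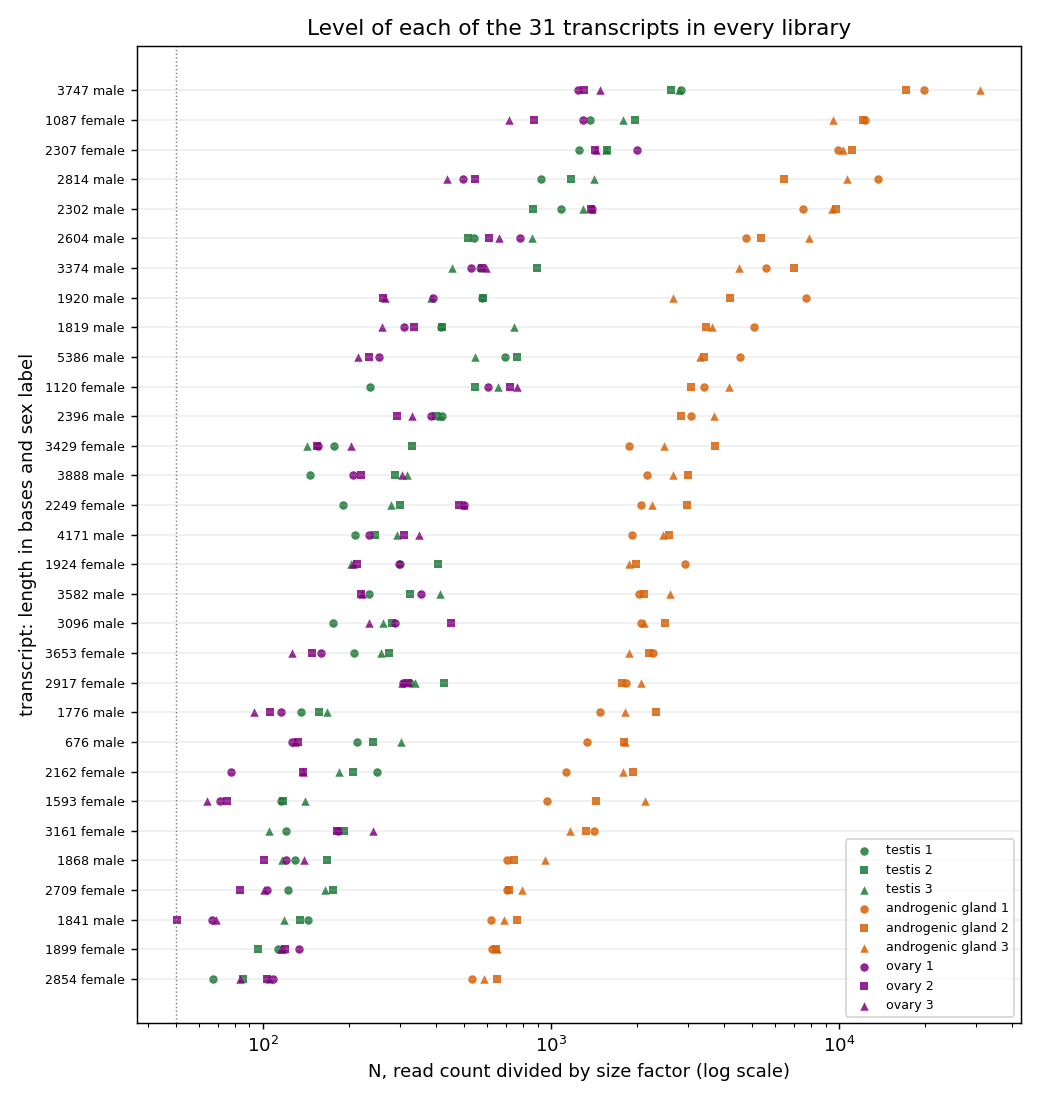
Each row is 1 of the 31 transcripts, named by length and sex label, and each point its N (read count divided by size factor, log scale) in 1 library of testis (green), androgenic gland (orange) or ovary (purple). Rows are ordered by mean gland N, from 591 to 22663, the dotted line marks the required gonad minimum of 50, and the gap between orange and other points is required by the selection.

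Summed over the 31 members, N came to 14301, 16765 and 16935 in the testes numbered 1 to 3. The gland sums were 126054, 121035 and 133711, and the ovary sums 13275, 12163 and 12175. As a share of all counts of a library the members took 0.186%, 0.215% and 0.272% in testis, 0.716%, 0.445% and 0.822% in the gland, and 0.203%, 0.176% and 0.177% in ovary. Their 95% Wilson intervals reached at most 0.00531 percentage points to either side. These intervals cover counting error only, not the spread between libraries, which was far wider in the gland. The gland libraries were alike in summed N but not in share, where gland 2 was low. The 5 members with the highest mean gland N held 50.1% ± 3.24 of the members' counts in the gland (SD, n = 3). In testis they held 51.1% ± 1.93 and in ovary 46.2% ± 1.86 of them. A few abundant transcripts thus made up a like part of the set in each tissue. The selection bounds the ratio of lowest gland N to gonad N in each member, so this likeness is only a description.

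Levels of different transcripts were compared per length, as mean N per kilobase. The highest in the gland was transcript_HQ_Female_transcript19593/f7p0/1087, a transcript of 1087 bases, at 10425 N per kilobase. Its N was 12310, 12101 and 9586 in gland 1 to 3, 1370, 1964 and 1788 in testis 1 to 3, and 1297, 876 and 718 in ovary 1 to 3. All its ovary libraries lay below all its testis libraries. The next was transcript_HQ_Male_transcript240/f42p0/3746, of 3747 bases, at 6048 N per kilobase.

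Gland 1 to 3 had N of 19825, 17151 and 31013 for that 3747-base transcript. Its testis libraries were close to each other, at 2838, 2621 and 2785, and its ovary libraries lower, at 1245, 1306 and 1480. Gland 3 stood above the other gland libraries, which the testis libraries did not mirror.

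Next by mean gland N per kilobase came the 2307-base female transcript at 4541, the 2302-base male transcript at 3880, the 2814-base male transcript at 3655 and the 1120-base female transcript at 3169. For the 2307-base transcript N was 9978, 11089 and 10363 in gland, 1250, 1572 and 1561 in testis, and 1987, 1430 and 1436 in ovary. The 2302-base transcript had 7489, 9801 and 9506 in gland, 1089, 870 and 1293 in testis, and 1388, 1376 and 1390 in ovary. Testis and ovary overlapped in the former, and in the latter every ovary library lay above every testis library. The 1120-base transcript had 3410, 3065 and 4174 in gland, 236, 548 and 657 in testis, and 607, 720 and 764 in ovary. Testis 1 stood low for this transcript, by a factor of 2.79 against testis 3. Over all 31 members the gland level had a median of 948 N per kilobase, against 114 in testis and 105 in ovary.

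The size of the gap was a matter of the selection at its lower end and varied above it. The lowest gland N exceeded the highest gonad N by 4.01 to 8.87 times, with a median of 4.86. Of the members 19 lay under 5 times, 6 from 5 to under 6, 5 from 6 to under 8 and 1 above. Most members thus lay close to the threshold of 4. Just inside it stood the 1120-base female transcript, with a lowest gland N of 3065 and a highest gonad N of 764, and the 2709-base female transcript, with 704 and 175. Just outside stood a 2946-base female transcript with 497 and 124, a ratio of 3.995, and a 2110-base female transcript with 1215 and 310.

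At the gonad minimum, the 1841-base male transcript was just inside with a lowest gonad N of 50.6, and a 1303-base female transcript just outside with 49.5. At the ceiling, the 1776-base male transcript was inside with a lowest gland N of 15.95 times its lowest gonad N. A 1232-base male transcript was outside at 16.4 times.

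By ratio of tissue means the members stood 4.79 to 12.4 times higher in gland than in testis (median 7.79) and 4.92 to 21.6 times higher than in ovary (median 9.50). The ratio over ovary was the larger one in 21 members and the ratio over testis in 10. The largest ratio of mean gland N to the highest gonad library belonged to the 1776-base male transcript, at 11.2. Its N was 1485, 2318 and 1805 in gland, 136, 157 and 167 in testis, and 116, 106 and 93.1 in ovary. It was followed by the 1593-base female transcript at 10.8 and the 1920-base male transcript at 8.33. The smallest ratios were those of the 2709-base, 2917-base and 1120-base female transcripts, at 4.21, 4.41 and 4.65.

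**Figure D2:**
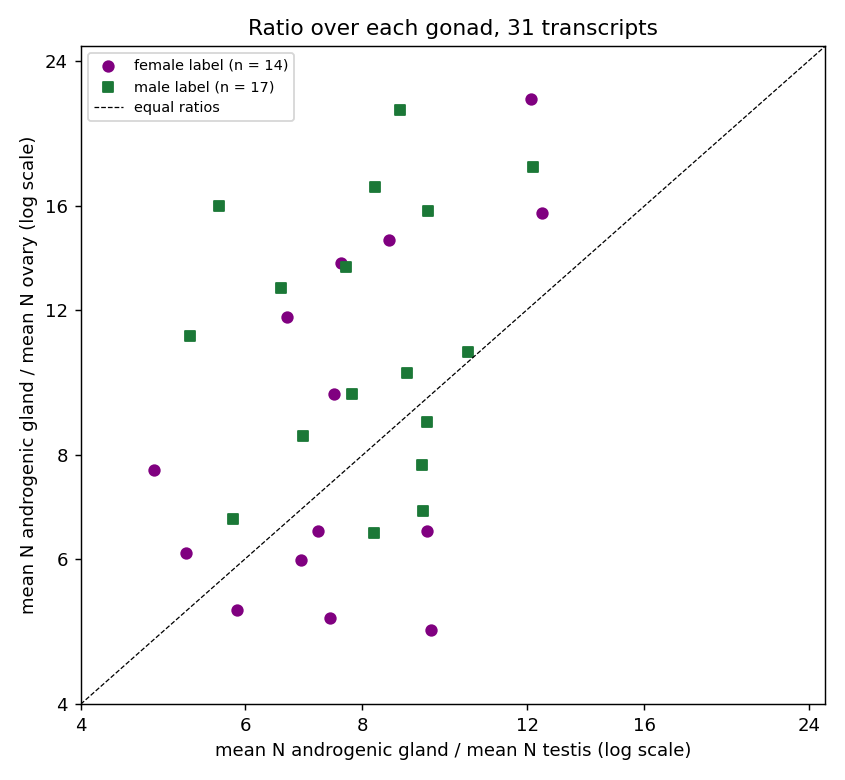
Each point is 1 of the 31 transcripts, with the ratio of mean gland N to mean testis N on the x axis and to mean ovary N on the y axis (both log scales), circles for the 14 with the female and squares for the 17 with the male label. On the dashed line both ratios are equal; 21 points lie above it and 10 below, and all values rest on size-factor scaling.

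In edgeR's quasi-likelihood test on the whole table, the call needed an adjusted p (Benjamini-Hochberg) below 0.05 and a log2 fold change of at least 1 in size. The fit scaled libraries by TMM, a scaling of edgeR that differs from the size factors behind N. All 31 members were called higher in gland than in testis, where 16% of all 17043 tested transcripts were called higher, and all 31 higher than in ovary, where 20.1% were. The selection used these contrasts, so nothing is read from the counts. The fitted log2 fold changes over testis were 2.26 to 3.62 with a median of 2.97, and over ovary 2.37 to 4.50 with a median of 3.34. Both comparisons share the gland libraries.

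The gap depended on how libraries were scaled. Scaled to the total count of a library in place of size factors, the lowest gland value was 0.993 to 3.14 times the highest gonad value (median 1.42). It was above it in 30 members, and by at least 2 times in 6. The exception was the 2709-base female transcript, and the 1120-base and 2814-base transcripts were close to it at 1.02 and 1.04. With library totals no transcript of the table met the selection, and 28 members were called higher in gland than in testis and 28 higher than in ovary. What share of all tested transcripts was called with library totals is not given here. In the edgeR fit the change was from TMM scaling to library totals. There the median log2 fold change of all tested transcripts moved from -0.28 to -1.52 for gland over testis, and from -0.65 to -2.18 for gland over ovary. The members' medians moved in the same direction, from 2.97 to 1.53 and from 3.34 to 1.75.

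**Figure D3:**
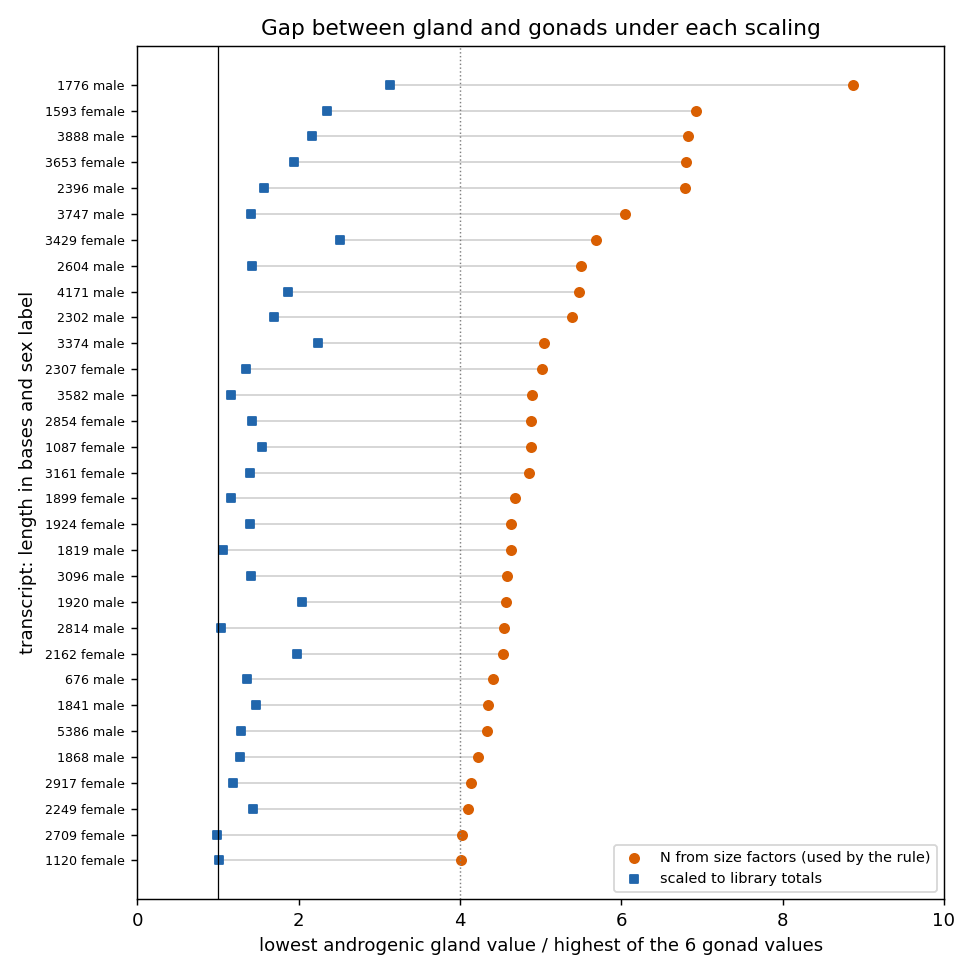
Each row is 1 of the 31 transcripts, with the ratio of its lowest gland value to its highest gonad value (linear x axis) from size factors (orange circles) and from values scaled to library totals (blue squares). The orange points start at 4.01, above the dotted threshold of 4, while the blue points lie between 0.993 and 3.14, with 30 of 31 to the right of the solid line at 1.

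Each library was also left out of the selection in turn, and its own values were then read. The other libraries of its tissue still chose the transcripts, so these values describe how alike those libraries are. They give no independent support for the gap. Chosen on the other 8 libraries, 34 transcripts were taken without gland 1, and 26 of them had a gland 1 N of at least 4 times the highest gonad N, with a median ratio of 4.78. Without gland 2 the numbers were 30 of 37, with a median of 5.56, and without gland 3 they were 28 of 31, with a median of 5.38. The lowest ratios in the left-out gland libraries were 2.28, 2.36 and 3.25. Among all 6025 transcripts with every gonad N at 50 or more, 1.76%, 2.49% and 2.19% reached 4 times in gland 1, 2 and 3. These 6025 were not chosen on any gland library. With a gonad library left out, the lowest gland N was at least 4 times the N of that library in 37 of 38 transcripts for testis 1, 31 of 33 for testis 3, 32 of 35 for ovary 1, 35 of 38 for ovary 2 and 33 of 35 for ovary 3. For testis 2 it was so in 33 of 59, with a lowest ratio of 1.11. The lowest ratio of all was 0.908, in ovary 2. In the matching backgrounds of 6131 to 6379 transcripts, not chosen on the gland, the shares were 5.53%, 4.28% and 4.36% for testis 1 to 3. For ovary 1 to 3 they were 4.75%, 5.12% and 5.72%.

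Testis 2 set the membership more than any other library. Left out of the selection, testis 2 let 59 transcripts in, the 31 members and 28 more, while leaving out any 1 of the other libraries gave 31 to 38. In 26 of the 28 added transcripts testis 2 was the highest of the 6 gonad libraries. Among the members testis 2 was the highest gonad library in 10 of 31, or 32.3%, against 25.5% of 4355 other-bounded transcripts. Those 4355 meet the widest bound on gonad values that the selection allows (lowest N at least 50, highest under 4 times the lowest). That bound follows from the conditions on the gland, and is tighter the further a member stands above the fold of 4. The 4355 are thus bounded more loosely than the members, and are the like background used below. Relative to the mean of the other two testes, the members stood at a median log2 ratio of 0.16 in testis 2, 0.15 in testis 3 and -0.33 in testis 1. The 4355 stood at 0.05, -0.09 and -0.01.

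Within the gland, 28 of 31 members varied by less than 2 times between libraries and 4 by less than 1.2 times. The most even was the 1899-base female transcript, with N of 627, 646 and 650, followed by the 2307-base and 2709-base female transcripts, whose highest gland library exceeded the lowest by 1.11 and 1.13 times. The least even was the 1920-base male transcript, with N of 7672, 4177 and 2651 in gland 1 to 3. Its gonad libraries were steadier, at 577, 580 and 385 in testis and 389, 261 and 267 in ovary. The 1593-base female transcript had gland N of 972, 1440 and 2117, and the 2814-base male transcript 13702, 6450 and 10706. These least even members did not share an order of the gland libraries. Gland 1 was the lowest gland library in 18 members, gland 2 in 6 and gland 3 in 7, and the highest fell to them in 8, 12 and 11. The coefficient of variation had a median of 16.1% in gland, 19.0% in testis and 12.9% in ovary over 3 libraries each.

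Deviations of testis and gland libraries were also set beside each other. Across the 31 members, the log2 deviations from the tissue means correlated at 0.13 for testis 1 with gland 1, 0.30 for testis 2 with gland 2 and 0.46 for testis 3 with gland 3. Between other numbers they ran from -0.44 to 0.15, the highest being testis 2 with gland 1, so number 1 did not stand out among the members. Over 4189 transcripts of the like background with gland N above 0 the values were 0.18, 0.30 and 0.30. These correlations only describe the libraries, whose deviations within a tissue sum to 0 and are thus tied to each other.

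Ovary against testis is the comparison that the selection did not make, although it held the 6 gonad values within a factor of 4 of each other. By the edgeR call, on TMM-scaled libraries, 5 of the 31 members were lower in ovary than in testis and 0 were higher. Among all 17043 tested transcripts 19.6% were called lower and 26.5% higher in ovary, and among the like background of 4355 the shares were 10.7% and 6.91%. The members' median log2 fold change was -0.38, against 0.08 over all tested and -0.10 over the like background. At an unadjusted p under 0.05 edgeR had 12 members lower and 1 higher. The shares at that p were 25.1% lower and 31.3% higher over all tested transcripts, and 21.5% and 16.5% in the like background. At an adjusted p under 0.05 without a minimum fold there were again 12 members lower and 1 higher. Over all tested transcripts 21.5% were lower and 28.4% higher by that measure, and in the like background 17.5% and 13.3%. DESeq2 called 4 lower and 0 higher. The edgeR count of lower members was 4 with DESeq2's size factors, 3 without ovary 3, 6 without testis 2 and 2 with library totals. For these other fits the shares over all tested transcripts are not given here, so nothing is read from their counts.

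All 5 called members carried the male label, as did 17 of all 31 members. The share of that label among all transcripts called lower in ovary is not given here, so nothing is read from this count. The largest difference was that of transcript_HQ_Male_transcript25/f4p0/5384, of 5386 bases. Its N was 693, 762 and 547 in testis 1 to 3 and 254, 234 and 215 in ovary 1 to 3, with 4552, 3410 and 3303 in gland. Every testis library lay above every ovary library, and the log2 fold change was -1.59 ± 0.25 (adjusted p = 0.0013 by edgeR), where the value after ± is a rough SE derived from the F statistic. It passed in all 15 alternative fits.

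The second was transcript_HQ_Male_transcript1073/f2p0/2814, with N of 927, 1173 and 1417 in testis and 497, 544 and 435 in ovary. These groups did not overlap either, and the log2 fold change was -1.34 ± 0.36 (adjusted p = 0.015 by edgeR). Without ovary 3, or with library totals, the adjusted p was 0.059 in each case and the call was lost. The 1841-base male transcript, among the scarce members, had N of 143, 135 and 118 in testis and 66.4, 50.6 and 69.0 in ovary. Its log2 fold change of -1.17 ± 0.21 (adjusted p = 0.0023 by edgeR) passed in all 15 alternative fits.

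The abundant 3747-base male transcript, whose values are given above, had a log2 fold change of -1.12 ± 0.34 (adjusted p = 0.024 by edgeR). This call was the least steady, and was lost in 5 of 15 alternative fits, with an adjusted p of up to 0.095. Those were the fits with library totals and those without testis 3 or any 1 of the ovary libraries. The 676-base male transcript, the shortest member, had N of 212, 241 and 303 in testis and 126, 133 and 130 in ovary. Its log2 fold change was -1.04 ± 0.21 (adjusted p = 0.0044 by edgeR), just past the fold threshold, and was smaller than 1 in size in 4 of 15 fits, at -0.89 without testis 3.

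Of the members that passed the adjusted p but not the fold, 7 were lower in ovary and 1 was higher. The lower ones had log2 fold changes from -0.93, in the 2162-base female transcript, to -0.63, in the 1776-base male transcript. The most abundant member per length, of 1087 bases, was among them at -0.91 ± 0.31 (adjusted p = 0.037 by edgeR). That p was 0.054 with DESeq2's size factors and 0.12 with library totals, and between 0.073 and 0.13 without testis 2, testis 3, ovary 2 or ovary 3. Without testis 1 or ovary 1 the transcript also passed the fold, at -1.05 and -1.16. The higher one was the 2249-base female transcript, singled out after its values were seen, with N of 191, 300 and 278 in testis, 499, 480 and 502 in ovary, and 2058, 2966 and 2253 in gland. Its log2 fold change was 0.86 ± 0.23 (adjusted p = 0.014 by edgeR), and every ovary library lay above every testis library. The other 18 members did not pass the adjusted p, which does not show that their gonad levels were equal.

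**Figure D4:**
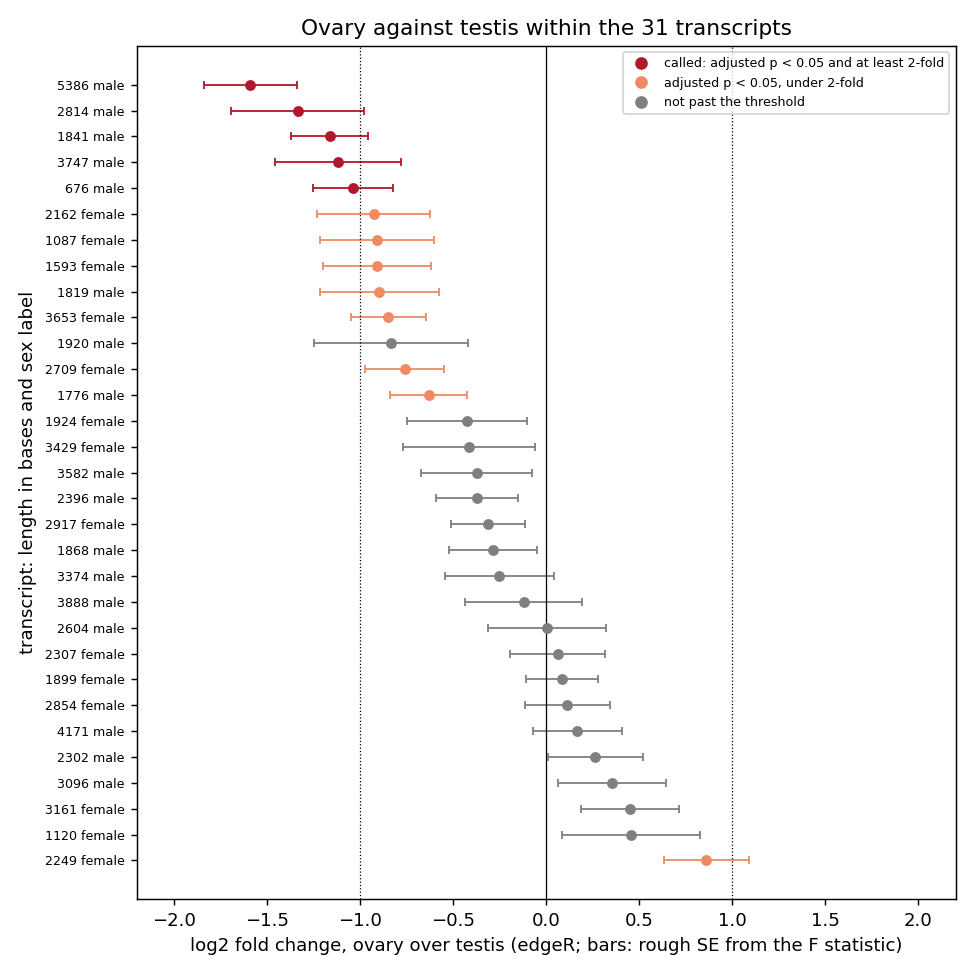
Log2 fold change of ovary over testis from edgeR for each of the 31 transcripts, with bars of 1 rough SE to either side taken from the F statistic and dotted lines at a change of 1 in either direction. The 5 called transcripts (dark red, top) run from -1.59 to -1.04, the 8 orange ones passed the adjusted p only, and the single one of these above 0 is the 2249-base transcript at 0.86.

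Counted by ranges of N, 14 members had every ovary library below every testis library and 2 had every ovary library above, while 15 overlapped. Over all tested transcripts 26.1% had ovary wholly below testis and 37.1% wholly above. In the like background these shares were 25.4% and 26.9%. Thus 45.2% of the members were wholly lower in ovary and 6.45% wholly higher. By sex label, ovary was wholly lower in 8 of 17 male and 6 of 14 female transcripts, and wholly higher in 1 of each. Background shares by label are not given here, so nothing is read from this split. The highest of the 6 gonad libraries was a testis library in 22 members, or 71.0%, against 54.9% of the like background.

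Length, sex label and read support in the ID were not used by the selection. The members were long, with a median of 2396 bases and a range of 676 to 5386, against 1649 over all tested transcripts and 2014 in the like background. N is not divided by length, and what part the minimum of 50 has in these lengths was not tested. Of the members 20 of 31 (64.5%) had 2000 bases or more, against 50.6% of the like background and 35.0% of those tested. Of the shortest class, under 1000 bases, the set held 1 transcript, the 676-base one. The male label was carried by 17 of 31 members (54.8%), against 39.1% of the like background and 30.5% of those tested. With 31 members such shares are imprecise, and no test was made of them.

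Male label members had a median length of 2604 bases and female label members of 2278. The median ratio of gland to ovary was 10.7 in the male and 7.08 in the female label group, and that of gland to testis 8.25 and 7.43. Both groups spanned nearly the whole range, the ratio to ovary running from 6.45 to 20.9 in the male and from 4.92 to 21.6 in the female label group.

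The IDs follow the naming of long-read consensus transcripts, in which the number after f is that of the full-length reads merged into the transcript. It was 2, the lowest among the members, in 16 of 31 members (51.6%), against 41.5% of the like background and 50.7% of those tested. It was 10 or more in 4 members. The 2302-base male transcript stood out with 311, the 3747-base male transcript had 42, the 1593-base female transcript 11 and the 676-base male transcript 10. The most abundant member per length in these libraries, of 1087 bases, had 7. All members were marked HQ, as were 99.7% of the like background.

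Counts with decimals can arise where a read is shared out between similar transcripts. Counts were whole in all 9 libraries in 11 of 31 members (35.5%), against 38.4% of the like background and 33.6% of those tested. The other 20 members had decimals in at least 1 library and may share reads with another transcript, which the table does not show. The 5386-base, 2814-base, 1841-base and 3747-base transcripts called lower in ovary were among these 20, and the 676-base one had whole counts. Members with whole counts stood at 4.41 to 11.2 times the highest gonad library by mean gland N (median 5.58) and the others at 4.21 to 8.33 times (median 5.60). These ratios were bounded by the selection and are given as a description.

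**Figure D5:**
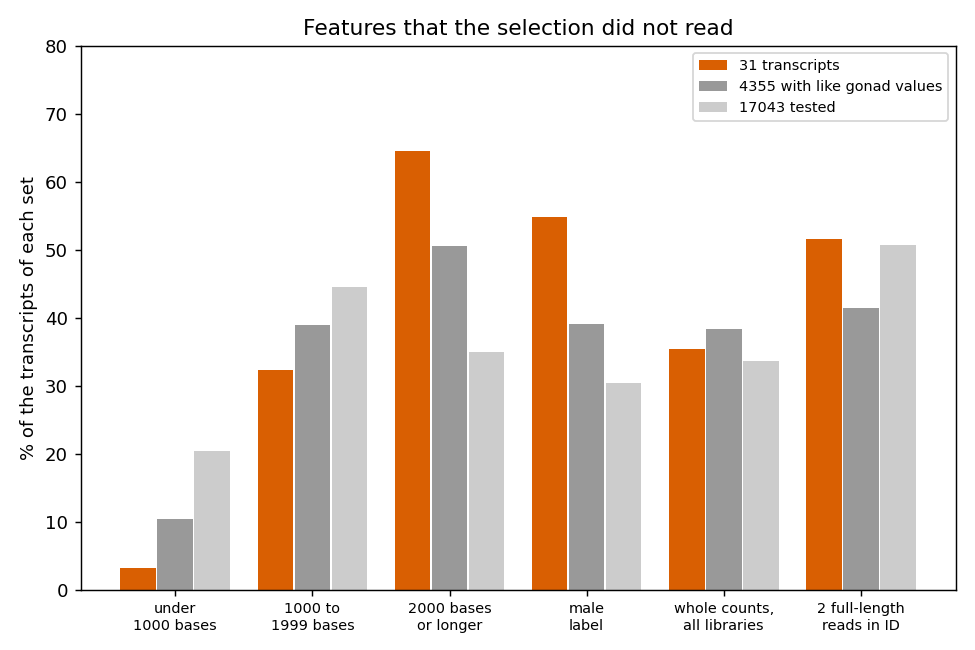
Bars give the share, in % from 0, of the 31 transcripts (orange), of the 4355 transcripts with like gonad values (dark grey) and of the 17043 tested (light grey) that have each feature on the x axis. The 31 have 64.5% at 2000 bases or longer and 54.8% with the male label, above both backgrounds, and 35.5% with whole counts, between them.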

How the data were processed

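The authors made and deposited 1 table of estimated counts per transcript beside its length, called read counts per the file headers, with no scaling between libraries. Between 46.87% and 64.34% of a library's values are whole. Bowtie 0.12.2, DESeq 1.10.1 and the build mm8 are named, without roles, per the submitters' processing notes. The tool that counted reads, its strand setting and the origin of the transcripts were not given in the sources used here. Per the labels' protocols the library kit was directional.

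Size factors were medians of ratios over 11287 transcripts with a count in all 9 libraries. Counts were rounded to whole numbers and tested with edgeR 4.0.16 (R 4.3.3). Filtering was by filterByExpr (minimum count 10, minimum total 15), scaling by TMM, with 1 mean per tissue, 6 residual degrees of freedom, a prior count of 1 and Benjamini-Hochberg adjustment over 17043 transcripts, two-sided. A rough SE was had by dividing each absolute log2 fold change by the root of its F. Alternatives used DESeq2 1.42.0, other scalings, no filter, a replicate block and each library left out.

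The members and the groupings were chosen with earlier results of these data known. Named by ID are the 2 called members with the largest difference between ovary and testis in each direction (0 were higher) and the 2 most abundant per kilobase in gland. Described without an ID are the next of these orders to the sixth place, the 3 at either end of the gap and of evenness in gland, and those nearest to each threshold.

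Same-numbered libraries of testis and gland deviated together over 17043 transcripts, with r of 0.289 to 0.417. Between other numbers r was -0.317 to -0.0159. Deviations within a tissue sum to 0, so these values are tied to each other. The labels name no pairing, and whether such libraries share an animal or a step of processing was not tested. Testis and ovary of the same number gave -0.14 to 0.00855.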

Additional observations from a re-analysis of the deposited data

How the results depend on the processing

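The number of members followed the selection's own limits. It was 87 with a fold of 3 and 6 with a fold of 6 over the highest gonad value, 47 with a ceiling of 1/32 and 5 with 1/8, and 0 with library totals, against 31. It stayed within 1.5 times at 25 with TMM-scaled sizes (23 of them members), 45 with a gonad minimum of 25 and 24 with one of 100. Leaving out 1 library gave 31 to 59, the latter without testis 2. All 31 members stayed without any 1 gonad library, but 26, 30 and 28 of them without gland 1, 2 and 3. Of members lower in ovary than testis there were 5, and 12 with no minimum fold, 2 with library totals (the 5386-base and 1841-base transcripts) and 3 to 7 with 1 library left out, the 3 without ovary 3. Without testis 2 there were 6, which include the 5. Members higher in ovary numbered 0, or 1 with no minimum fold, and 0 in each fit that left out a library. The fit with a replicate block gave 5 lower and 0 higher, the same transcripts, and 31 higher in gland than in either gonad, so the block changed none of these counts. No label ties the numbers of testis to those of ovary. The calls for gland over testis and over ovary were 31 under each other alternative, except 28 with library totals. What share of all tested transcripts was called under each alternative is not given here, and the cause of these shifts was not tested. With 3 libraries a tissue and gonad values held within a factor of 4, a small difference between the gonads can be missed.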

Other observations

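A further 38 transcripts passed the fold and the gonad minimum but reached or exceeded the ceiling, so that they stood higher still in gland against their lowest gonad library. Of these 31 carried the male label (81.6%, against 29.9% of all 21071 transcripts) and 7 the female label. Their gonad libraries were 4 or more times apart in 26 of 38. Any transcript past the fold with that spread lies at or over the ceiling, so the limits place it here. Testis 2 was the highest gonad library in 20 of the 38, against 10 of the 31 members. Mean N was lower in ovary than in testis in 33 of the 38, against 21 of the 31 members. The share over all tested transcripts is not given here for either of these counts. In 5 of them the lowest gland N was at least 16 times the highest gonad N. These values describe transcripts chosen by the same measure.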
